A study of Mus musculus with 12 samples.

Results

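The gene expression change shared by 2 glioma-initiating cell lines carrying an oncogenic HRas is described, as the mean of the differences NSCL61 minus NSC and OPCL61 minus OPC. It rests on 8 of the 12 arrays of the series, 2 in each of 4 groups, and on the 12788 genes with enough signal to test. A gene counts as shared where both differences passed the test in the same direction, which 2027 genes did (15.9%). Total RNA was hybridised to biotin-labelled oligonucleotide arrays, and the values are log2 signals per probe set.

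All 12 samples are mouse brain cells of the BL6 strain with the genotype p53-/-, so the lines and their parents alike lack p53. The source tissue was the telencephalon of embryos at E14.5, which is embryonic day 14.5. NSCL61 and OPCL61 are stable lines made from NSC and OPC, and ASTL61, used here as context, was made from AST. The lines received a plasmid encoding HRasL61 and EGFP and one carrying neomycin resistance by electroporation, were kept in neomycin and were sorted for GFP. NSC are neural stem cells grown as floating spheres with growth factors and no serum. OPC are oligodendrocyte precursor cells induced from NSC with PDGFAA, bFGF and low serum and then immunopanned, and AST are astrocytes induced by serum. No parent is described as electroporated, selected or sorted, so HRasL61 and those steps cannot be told apart. The labels name each line once and do not say whether the 2 arrays of a group are separate cultures, so p-values measure the spread between arrays, which may be technical. The Hras and Trp53 transcripts were not analysed here.

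Ras is a membrane switch that, when it stays on, feeds the RAF, MEK and ERK kinase cascade. ERK turns on genes of growth and also its own brakes, the dual-specificity phosphatases, Sprouty and Spred proteins, and it raises members of AP-1, a transcription factor made of Fos and Jun proteins. Neural stem cells give rise to neurons, astrocytes and oligodendrocyte precursors. The precursors divide in answer to PDGF, which they bind through the receptor Pdgfra.

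Array medians lay between 5.157 and 5.211. The SD over genes of the difference between the 2 arrays of a group was between 0.193 in NSCL61 and 0.416 in OPCL61. The control signal of 18S ribosomal RNA was 11.7 in NSCL61 replicate 2, 12.1 in NSC replicate 2 and 12.6 in OPC replicate 2, and between 7.91 and 10.3 on the other 9 arrays. The NSC arrays went against part of their label. The 14 neural stem cell markers averaged 6.16 to 6.38 in NSC against 7.98 to 8.03 in NSCL61, and 8.12 to 8.18 in OPC against 7.83 to 7.98 in OPCL61. Sox2, the SRY-box factor that keeps neural stem cells in their state, had 4.41 and 6.79 in NSC, against 11.99 and 11.89 in OPC. Other markers of that list were high in NSC, such as Vim with 13.78 on both arrays and Nes with 8.4 and 8.2. Collagen I (Col1a1) had 12.61 and 12.93 in NSC against 4.35 and 4.08 in OPC. The 13 pericyte and fibroblast markers averaged 5.32 to 5.38 in the NSCL61 arrays against 10.26 to 10.76 in NSC, and 5.11 to 5.30 in OPCL61 against 4.99 to 5.08 in OPC. The 17 OPC markers averaged 5.04 to 5.08 in NSCL61 against 5.42 to 5.49 in NSC, and 6.01 to 6.42 in OPCL61 against 9.37 to 9.82 in OPC. The AST and ASTL61 arrays also went against part of their label. The 16 astrocyte markers averaged 5.82 to 5.85 in AST and 5.86 to 6.01 in ASTL61, against 8.49 to 8.62 in OPC. The pericyte and fibroblast markers averaged 7.88 to 8.39 in AST and 8.65 to 9.02 in ASTL61. A difference from a parent can hold a difference in cell makeup, and in these bulk samples fewer cells of a type and less RNA per cell cannot be told apart.

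The first comparison asks which genes moved the same way in the lines made from stem cells and from oligodendrocyte precursors. Of 12788 genes, 1213 (9.49%) rose in both lines and 814 (6.37%) fell in both by limma with Benjamini-Hochberg adjustment at 0.05. In NSCL61 against NSC, 2649 genes were higher (20.7%) and 2188 lower (17.1%), 37.8% in all. In OPCL61 against OPC, 3137 were higher (24.5%) and 3044 lower (23.8%), 48.3% in all. The 2 comparisons share no array. Of the genes higher in NSCL61, 45.8% also rose in OPCL61 and 13.6% fell there. Of the genes lower in NSCL61, 37.2% also fell in OPCL61 and 17.5% rose there. Read from the other line, 38.7% of the genes higher in OPCL61 also rose in NSCL61, and 26.7% of those lower also fell there.

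The mean of the 2 changes passed its own test for 3437 genes that were higher (26.9%) and 3200 that were lower (25%), 51.9% in all. Its median over all genes was 0.03, with the 5th percentile at -1.33 and the 95th at 1.33. Across the 12788 genes the 2 changes had a Pearson r of 0.226 and a Spearman rho of 0.262. Genes are not independent replicates, and this is a description. The shared rises had a median mean change of 0.99 and ran up to 6.55, and the shared falls had a median of -1.04 and ran down to -5.29. Both changes were at least 2 in size for 123 rises and 46 falls. Without the 3 arrays of high 18S signal, all 123 large rises and all 46 large falls kept their sign in both comparisons. That setting leaves NSC, NSCL61 and OPC with 1 array each. Here and below, a call lost under it can come from the fewer arrays, and the part of 18S signal was not tested.

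**Figure D1:**
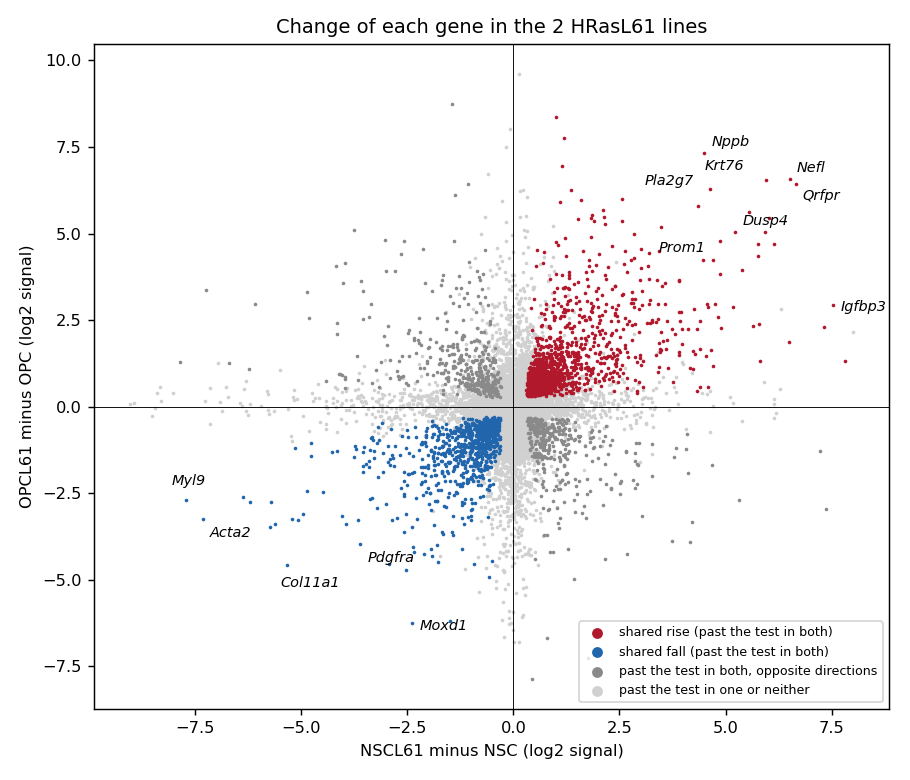
Each point is 1 of the 12788 genes, with the log2 change in NSCL61 against NSC on the horizontal axis and that in OPCL61 against OPC on the vertical axis. Red points rose and blue points fell past the test in both comparisons, dark grey points passed in opposite directions, and the named genes Nefl, Qrfpr and Krt76 lie near the diagonal at the upper right.

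The highest rises were those of a neuropeptide receptor, a neurofilament, a keratin and a natriuretic peptide. Qrfpr, the G protein-coupled receptor of the neuropeptide QRFP, had log2 signals of 9.42 and 9.57 in NSCL61 against 2.69 and 2.99 in NSC, and 9.36 and 9.32 in OPCL61 against 2.93 and 2.87 in OPC. Nefl, the neurofilament light chain of axons, had 10.72 and 10.05 in NSCL61 against 3.90 and 3.83 in NSC, and 12.34 and 12.72 in OPCL61 against 5.87 and 6.04 in OPC. Krt76, a keratin of oral epithelium, had 10.44 and 10.06 in NSCL61 against 4.15 and 4.42 in NSC, and 10.63 and 10.87 in OPCL61 against 4.15 and 4.23 in OPC. In each of these genes every line array stood far above every parent array, and the parents of Qrfpr and Krt76 and, for Nefl, NSC lay under 5.183, the median of all values, where a signal may be background and a change may be a lower bound. The mean changes were 6.55 ± 0.09 for Qrfpr (log2 difference ± SE; adjusted p = 5.76e-10 by limma), 6.54 ± 0.16 for Nefl and 6.26 ± 0.20 for Krt76.

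Because of those dim parents, the differences between the lines in these genes are only as exact as the parent signals. The OPC change minus the NSC change was -0.21 ± 0.18 for Qrfpr (adjusted p = 0.393 by limma), 0.06 ± 0.33 for Nefl (adjusted p = 0.909) and 0.60 ± 0.41 for Krt76 (adjusted p = 0.286). Nefl started higher in OPC than in NSC and ended higher in OPCL61 than in NSCL61. A second probe set of Nefl gave 6.11 in both comparisons. Nefm, the medium neurofilament chain and the neighbour of Nefl on chromosome 14, had 9.54 and 9.40 in NSCL61 against 4.98 and 3.20 in NSC, and 10.31 and 10.70 in OPCL61 against 6.40 and 6.70 in OPC, a mean change of 4.67 ± 0.35. Stc1, the secreted glycoprotein stanniocalcin and another neighbour there, rose by 1.84 ± 0.29 in NSCL61 and 3.91 ± 0.29 in OPCL61, and was chosen after its values were seen.

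Nppb, the B-type natriuretic peptide, had 11.33 and 11.16 in NSCL61 against 6.90 and 6.60 in NSC, and 11.80 and 12.13 in OPCL61 against 4.59 and 4.72 in OPC. Its signal ended near 11 to 12 in both lines but was higher in NSC than in OPC, and the change was larger in OPCL61 by 2.82 ± 0.28 (adjusted p = 5.65e-05 by limma). Igfbp3, which binds insulin-like growth factors, had 12.29 and 12.06 in NSCL61 against 4.77 and 4.52 in NSC, and 13.02 and 12.60 in OPCL61 against 10.15 and 9.62 in OPC. It was already high in OPC, and its change was 7.54 ± 0.28 in NSCL61 against 2.92 ± 0.28 in OPCL61. Pla2g7, the secreted enzyme that breaks down platelet-activating factor, had 11.29 and 11.16 in NSCL61 against 6.84 and 6.36 in NSC, and 9.94 and 10.02 in OPCL61 against 3.58 and 3.81 in OPC, a mean change of 5.46 ± 0.19. Serpinb11, a serpin, had 10.02 and 10.04 in NSCL61 against 3.67 and 4.08 in NSC, and 7.95 and 8.85 in OPCL61 against 3.97 and 3.41 in OPC, a mean change of 5.43 ± 0.20.

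At the membrane, Slc9a2, a sodium-proton exchanger, had 10.48 and 9.89 in NSCL61 against 4.63 and 4.64 in NSC, and 9.74 and 10.22 in OPCL61 against 4.36 and 4.34 in OPC. Chrna1, the alpha subunit of the muscle acetylcholine receptor, had 11.51 and 11.30 in NSCL61 against 5.87 and 5.08 in NSC, and 10.24 and 9.83 in OPCL61 against 5.18 and 4.81 in OPC. Prom1, the surface glycoprotein CD133 often used as a stem cell marker, had 9.08 and 8.89 in NSCL61 against 4.54 and 3.68 in NSC, and 8.57 and 8.22 in OPCL61 against 3.49 and 3.73 in OPC. All 3 genes lay near or under the median signal in both parents and well above it on every line array. Their mean changes were 5.59 ± 0.15, 5.48 ± 0.20 and 4.83 ± 0.20. From these dim parents, the OPC change minus the NSC change of Prom1 was -0.09 ± 0.40 (adjusted p = 0.887 by limma).

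Inside the cell, Dusp4, the phosphatase that switches ERK off in the nucleus, had 10.96 and 10.77 in NSCL61 against 6.35 and 4.93 in NSC, and 10.92 and 10.30 in OPCL61 against 5.39 and 5.76 in OPC. The kelch-like protein Klhl4 had 8.71 and 8.52 in NSCL61 against 2.64 and 2.53 in NSC, and 7.46 and 9.20 in OPCL61 against 3.03 and 2.75 in OPC. Ube2ql1, a ubiquitin-conjugating enzyme, had 10.68 and 10.56 in NSCL61 against 4.99 and 4.72 in NSC, and 10.47 and 10.79 in OPCL61 against 5.77 and 6.13 in OPC. The mean changes were 5.13 ± 0.37, 5.74 ± 0.30 and 5.22 ± 0.14. Second probe sets of Klhl4 and Ube2ql1 stayed near the background, with changes of 0.19 and 0.36 for Klhl4 and 0.35 and 0.31 for Ube2ql1 in NSCL61 and OPCL61. Next in size were Gsto2, an omega-class glutathione transferase, with 5.08 ± 0.32, Atp13a4, a P-type ATPase, with 5.06 ± 0.15, Insm1, a zinc finger factor of neuronal and endocrine precursors, with 4.46 ± 0.18, and Perp, a membrane protein of desmosomes, with 4.36 ± 0.24. These 4, with Prom1 and Nefm, were named for the largest value of the smaller of their 2 changes. The shared call of all 18 rises held under each of the 23 other settings that refitted the genes.

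**Figure D2:**
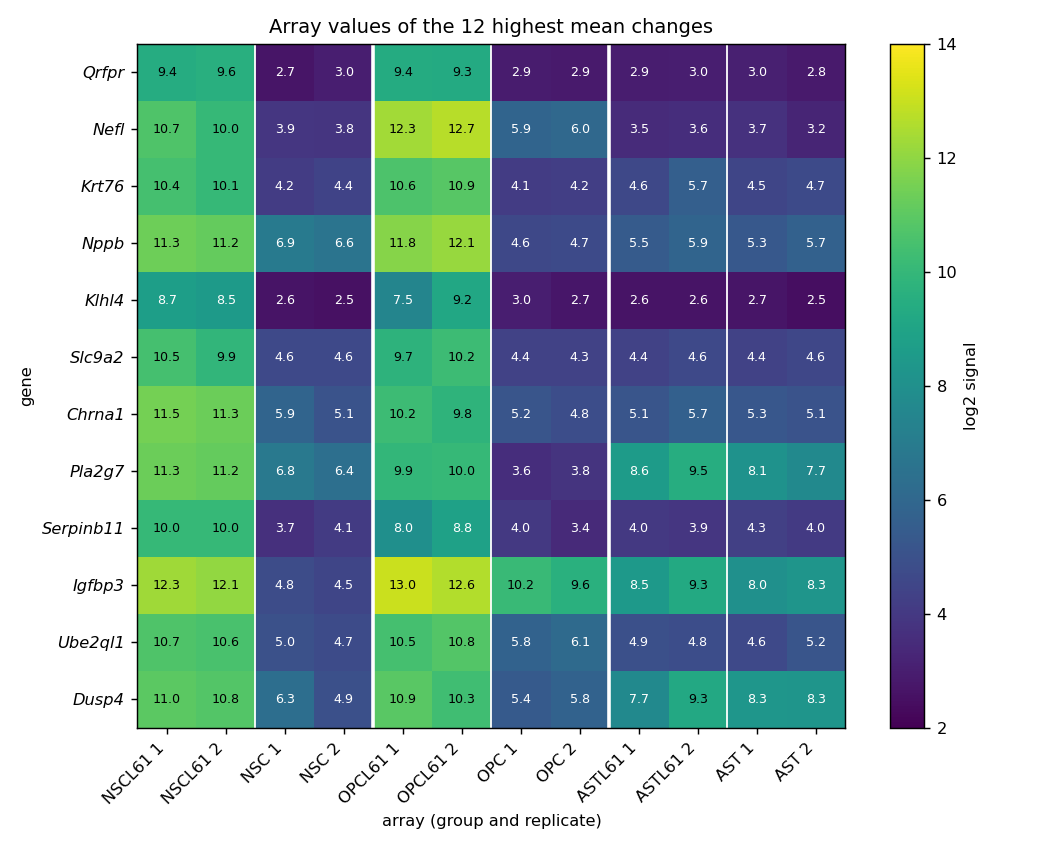
Log2 signal of the 12 genes of highest mean change on each of the 12 arrays, with each line left of its parent and brighter cells for higher signal. The NSCL61 and OPCL61 columns are bright in every row, while the NSC, OPC, ASTL61 and AST columns are dark in most, with Pla2g7, Igfbp3 and Dusp4 also bright in ASTL61 and AST.

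Promoter sequence was read for members that moved together, from RefSeq windows of mouse build GRCm38.p6 that hold 250 bases before and 50 after a gene's start. The first 4 windows below belong to genes that rose in both lines and the last to Myl9, which fell in both. All are written 5′ to 3′ on the gene's strand. Capitals mark the letters TGANTCA, which AP-1 is known to bind, and in Myl9 a CArG box, which serum response factor is known to bind. Qrfpr lies on the minus strand at chr3:36222226-36222525, Prom1 on the minus strand at chr5:44101687-44101986 and Chrna1 on the minus strand at chr2:73580289-73580588. Serpinb11 lies on the plus strand at chr1:107362064-107362363 and Myl9 on the plus strand at chr2:156775214-156775513.
Qrfpr: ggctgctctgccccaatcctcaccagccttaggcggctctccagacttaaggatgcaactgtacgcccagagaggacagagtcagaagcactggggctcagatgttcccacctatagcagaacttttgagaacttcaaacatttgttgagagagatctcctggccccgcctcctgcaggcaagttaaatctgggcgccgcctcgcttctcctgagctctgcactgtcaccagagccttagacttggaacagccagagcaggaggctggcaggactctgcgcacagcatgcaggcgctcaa
Prom1: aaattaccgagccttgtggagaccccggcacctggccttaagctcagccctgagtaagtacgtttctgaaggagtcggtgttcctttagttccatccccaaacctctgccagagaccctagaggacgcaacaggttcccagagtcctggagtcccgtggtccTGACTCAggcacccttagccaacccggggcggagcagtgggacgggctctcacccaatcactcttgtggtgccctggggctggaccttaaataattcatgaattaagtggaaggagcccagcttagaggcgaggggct
Chrna1: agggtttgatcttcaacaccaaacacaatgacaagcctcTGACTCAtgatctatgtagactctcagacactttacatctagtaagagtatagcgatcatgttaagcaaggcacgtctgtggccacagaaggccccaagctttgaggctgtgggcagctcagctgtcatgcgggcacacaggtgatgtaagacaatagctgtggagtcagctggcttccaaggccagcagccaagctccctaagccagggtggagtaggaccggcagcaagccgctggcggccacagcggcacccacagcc
Serpinb11: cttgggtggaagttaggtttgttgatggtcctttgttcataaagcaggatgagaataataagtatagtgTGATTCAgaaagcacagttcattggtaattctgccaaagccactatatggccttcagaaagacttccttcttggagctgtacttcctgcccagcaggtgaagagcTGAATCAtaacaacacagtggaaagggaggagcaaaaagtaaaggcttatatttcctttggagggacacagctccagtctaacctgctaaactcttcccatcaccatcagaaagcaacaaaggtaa
Myl9: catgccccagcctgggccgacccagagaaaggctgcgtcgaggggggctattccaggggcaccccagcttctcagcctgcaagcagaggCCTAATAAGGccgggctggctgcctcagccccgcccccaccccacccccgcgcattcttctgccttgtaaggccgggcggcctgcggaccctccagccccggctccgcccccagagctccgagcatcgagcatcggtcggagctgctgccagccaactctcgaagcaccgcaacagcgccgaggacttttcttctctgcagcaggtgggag

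The AP-1 letters began at -88 from the start in Prom1, at -211 in Chrna1, and at -181 and -76 in Serpinb11, and none of the 5 motifs searched gave capitals in Qrfpr. The CArG box of Myl9 began at -161. The Prom1 window is the first of 2 listed for that gene. Of the 123 genes that rose by at least 2 in both lines, 89 had a window and 14 of those windows (15.7%) held TGANTCA. The share was 4.90% of the 10294 tested genes with a window, 6.0% of the 984 shared rises, 5.60% of the 643 shared falls and 7.93% of all 27025 windows. Besides Prom1, Chrna1 and Serpinb11, the 14 include the windows of Il5ra, Plaur, Cd68, Spint1 and Upp1.

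These shares moved with base composition. The 89 windows had a median of 11 CpG dinucleotides, against 21 in the tested genes. Among windows with 11 or fewer CpG, 11 of 46 genes with a large rise (23.9%) and 9.95% of tested genes held the letters. Among windows with more CpG, the shares were 3 of 43 (6.98%) and 3.39%. The part of base composition in the rest was not tested. CCGGAA, which ETS factors bind, was in 29.5% of shared rises, 21.0% of shared falls and 27.1% of tested genes, and in 10.1% of the large rises. Each motif was searched on both strands, and a match is a description of letters, not of a bound site.

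The 12 lowest mean changes include a smooth muscle actin and a myosin light chain, a collagen, a cadherin, a growth factor and a forkhead transcription factor. Acta2, smooth muscle actin, had 6.29 and 6.36 in NSCL61 against 13.64 and 13.68 in NSC, and 6.45 and 5.81 in OPCL61 against 10.40 and 8.36 in OPC. Myl9, the regulatory light chain of smooth muscle myosin, had 4.64 and 5.14 in NSCL61 against 12.49 and 12.76 in NSC, and 5.58 and 4.48 in OPCL61 against 7.91 and 7.53 in OPC. Both genes were highest in NSC, lower in OPC and near the background in both lines. Acta2 fell by 7.33 ± 0.52 in NSCL61 and 3.25 ± 0.52 in OPCL61, and Myl9 by 7.73 ± 0.56 and 2.69 ± 0.56. The fall was larger in NSCL61 for both, by 4.08 ± 0.74 (adjusted p = 0.00226 by limma) and 5.04 ± 0.79 (adjusted p = 9.56e-04). Other probe sets of Acta2, with group means no higher than 6.7, gave -0.12 and 0.21 in OPCL61.

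Among matrix and adhesion genes, Col11a1, a chain of fibrillar collagen XI, had 4.55 and 5.32 in NSCL61 against 10.00 and 10.54 in NSC, and 5.83 and 4.61 in OPCL61 against 9.92 and 9.69 in OPC. It was high in both parents and fell by 5.34 ± 0.40 in NSCL61 and 4.58 ± 0.40 in OPCL61, with a difference of 0.76 ± 0.57 (adjusted p = 0.332 by limma). A second Col11a1 probe set gave -4.44 and -3.71. Cdh11, a cadherin of mesenchymal cells, had 6.65 and 6.40 in NSCL61 against 12.37 and 11.93 in NSC, and 4.57 and 6.47 in OPCL61 against 8.98 and 8.84 in OPC. Edil3, a secreted integrin ligand, had 3.14 and 3.85 in NSCL61 against 10.00 and 9.42 in NSC, and 4.35 and 3.71 in OPCL61 against 6.47 and 7.12 in OPC. The mean falls were 4.51 ± 0.37 for Cdh11 and 4.49 ± 0.26 for Edil3, both larger in NSCL61. Ccdc80, a secreted matrix protein, and Antxr1, a collagen-binding receptor, fell by means of 4.50 ± 0.24 and 4.04 ± 0.26, and a second Antxr1 probe set near the background gave -0.25 in NSCL61 and 0.23 in OPCL61.

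Growth factor and regulatory genes fell too. Ptn, the secreted growth factor pleiotrophin, had 5.21 and 6.09 in NSCL61 against 11.16 and 11.60 in NSC, and 9.84 and 9.44 in OPCL61 against 12.45 and 12.37 in OPC. It stayed well above background in OPCL61 and not in NSCL61, with a mean fall of 4.25 ± 0.27. Pdgfra, the PDGF receptor of oligodendrocyte precursors, had 7.04 and 7.01 in NSCL61 against 10.52 and 10.77 in NSC, and 8.05 and 7.14 in OPCL61 against 11.29 and 11.85 in OPC. Pdgfra fell by 3.62 ± 0.44 in NSCL61 and 3.98 ± 0.44 in OPCL61, and its difference of -0.36 ± 0.63 did not pass (adjusted p = 0.693 by limma). The transcription factor Foxd1 and the transcriptional coactivator Eya4 fell by means of 4.19 ± 0.25 and 4.61 ± 0.28. Epb41l3, which links membrane proteins to the cytoskeleton, fell by 4.24 ± 0.15.

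Moxd1, a relative of dopamine beta-hydroxylase, had 3.70 and 4.06 in NSCL61 against 7.12 and 5.41 in NSC, and 4.09 and 4.89 in OPCL61 against 10.73 and 10.74 in OPC. Among the 12 largest falls it was the one with a larger fall in OPCL61, with an OPC change minus NSC change of -3.86 ± 0.66 (adjusted p = 0.00157 by limma). Besides Pdgfra, 5 further genes were named for the size of the smaller of their 2 falls: the zinc finger factor Zfp521 (3.67 ± 0.21 on average), the imprinted membrane protein Nnat (3.47 ± 0.36), Islr (3.59 ± 0.21), the semaphorin receptor Plxnc1 (3.74 ± 0.26) and the immunoglobulin superfamily member Igdcc4 (3.07 ± 0.33). The shared call of all 18 falls held under every one of the 23 other settings in which the gene was tested. Acta2 and Cspg4 are also on the pericyte and fibroblast list, whose levels moved with NSC as given above, and the part of cell makeup in these falls was not tested.

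**Figure D3:**
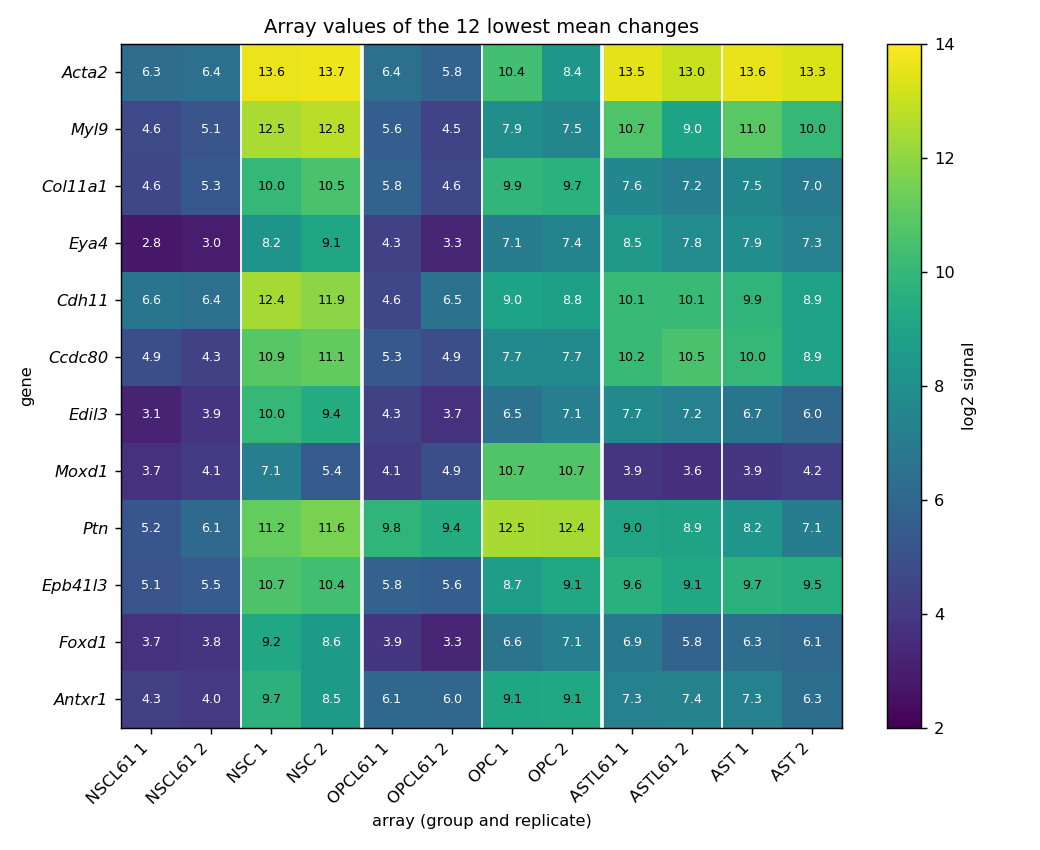
Log2 signal of the 12 genes of lowest mean change on each of the 12 arrays, with each line left of its parent. NSC columns are brightest for Acta2, Myl9 and Cdh11, OPC columns for Ptn and Moxd1, and the NSCL61 and OPCL61 columns are dark in every row but that of Ptn in OPCL61.

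Genes of the ERK response were often among the shared rises. Of 20 tested genes of ERK feedback and Ras output, 12 rose in both lines and the other 8 passed in one comparison or neither, with a median mean change of 1.26. Over all genes tested 9.49% rose, with a median of 0.03. Besides Dusp4, the transcription factor Fosl1 had 11.16 and 10.89 in NSCL61 against 8.91 and 8.81 in NSC, and 10.09 and 10.45 in OPCL61 against 4.74 and 5.22 in OPC. The ephrin receptor Epha2 had 9.51 and 9.40 in NSCL61 against 6.89 and 7.39 in NSC, and 7.53 and 7.88 in OPCL61 against 4.74 and 4.91 in OPC. The chromatin protein Hmga2 had 12.41 and 12.50 in NSCL61 against 11.75 and 11.16 in NSC, and 12.15 and 12.50 in OPCL61 against 7.34 and 7.79 in OPC. Fosl1 and Hmga2 were already high in NSC, and their mean changes were 3.72 ± 0.22 and 2.88 ± 0.24. Hmga2 rose by 1.00 in NSCL61 and 4.76 in OPCL61, and kept its shared call in 15 of 23 other settings. The others that rose were the phosphatases Dusp5 and Dusp6, the ERK inhibitors Spry4, Spred2 and Spred3, and Ier3, Phlda1 and the cyclin Ccnd1. Spry1 had log2 changes of -0.37 in NSCL61 and -0.30 in OPCL61, and Etv5 of 0.95 and -1.41. Without the 3 arrays of high 18S signal 5 of the 20 passed in both, and without NSCL61 replicate 1 it was 9.

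The AP-1 and EGF family lists also held shared rises, against 9.49% of all tested genes. Of 12 AP-1 genes 4 rose: Fosl1, the small Maf proteins Maff by 2.19 ± 0.23 and Mafk by 0.66 ± 0.11 on average, and Fosb by 1.06 ± 0.18. Fosl2 passed in opposite directions, at -0.79 in NSCL61 and 3.67 in OPCL61, and Jun itself had changes of -0.27 and 0.32. Of 8 EGF family genes 3 rose, all ligands. Betacellulin (Btc) had 8.13 and 8.27 in NSCL61 against 4.47 and 4.09 in NSC, and 8.28 and 7.55 in OPCL61 against 4.32 and 4.22 in OPC. Hbegf rose by 2.65 ± 0.29 and Nrg1 by 2.0 ± 0.21 on average. Egfr, the receptor of Btc and Hbegf, had changes of -0.07 in NSCL61 and -0.58 in OPCL61. Without the 3 arrays 1 of the 12 AP-1 genes and 1 of the 8 EGF family genes passed in both. The AP-1 count of 4 was 2 without NSC replicate 1, without NSC replicate 2 and with centring within chromosomes, and Fosb kept its call in 9 of 22 other settings.

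Of 22 cytokine genes 8 rose and 2 passed in opposite directions, with a median mean change of 1.20. Among all tested genes 9.49% rose and 5.8% passed in opposite directions. Il5ra, a chain of the interleukin receptor of eosinophils, had 10.63 and 10.68 in NSCL61 against 3.26 and 3.40 in NSC, and 5.05 and 5.59 in OPCL61 against 3.13 and 2.94 in OPC. It rose more in NSCL61, with an OPC change minus NSC change of -5.04 ± 0.24 (adjusted p = 8.56e-07 by limma). The interleukin receptor chains Il6ra and Il4ra, the ligands Clcf1, Il11, Csf2 and Csf3, and the chemokine Cxcl2 also rose. Clcf1 rose by 1.27 ± 0.20 in NSCL61 and 2.33 ± 0.20 in OPCL61. Chemokine Ccl2 moved oppositely, at -1.37 and 6.12. Without the 3 arrays 3 of the 22 passed in both, and the count was 4 without NSCL61 replicate 1 and 5 without NSC replicate 2 or OPC replicate 2.

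Some genes of sugar metabolism and of the hypoxia response rose. Of 19 glycolysis and hypoxia genes 8 rose, against 9.49% of all tested genes. The other 11 passed in one comparison or neither, and the median mean change of the list was 0.86. Slc2a3, a glucose transporter of neurons, had 11.49 and 11.73 in NSCL61 against 6.0 and 5.91 in NSC, and 11.04 and 9.63 in OPCL61 against 8.04 and 7.95 in OPC, a mean change of 4.0 ± 0.25. The 3 other Slc2a3 probe sets gave 4.36 to 5.62 in NSCL61 and 2.29 to 2.37 in OPCL61. The widespread glucose transporter Slc2a1 rose by 1.88 ± 0.12, the hypoxia-induced Ankrd37 by 2.82 ± 0.34, and Egln3, Hk2, Aldoa, Pkm and Ldha rose as well. Vegfa had changes of -0.10 in NSCL61 and 1.19 in OPCL61. The count of 8 was 2 without the 3 arrays, 4 without NSC replicate 2 or either NSCL61 array and 5 with each array centred within chromosomes.

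Of 13 NRF2 target genes 3 rose and 1 fell, beside 9.49% and 6.37% of all tested genes. The aldo-keto reductase Akr1b8 had 11.32 and 11.12 in NSCL61 against 10.24 and 9.93 in NSC, and 10.91 and 11.11 in OPCL61 against 3.96 and 4.18 in OPC, so that its OPCL61 signal reached that of the other line from a background level in OPC. Gstm1, a glutathione transferase, fell by 1.79 ± 0.24 on average, and Gsr and Osgin1 rose by 0.97 ± 0.14 and 0.71 ± 0.12. Osgin1 kept its shared call in 7 of 22 other settings, and without the 3 arrays of high 18S signal Gsr (adjusted p = 0.0510 by limma) and Osgin1 (adjusted p = 0.338) lost theirs, which left 1 rise. Of 15 cholesterol synthesis genes 1 fell, Hmgcs1 by 1.22 ± 0.18, a call lost without either OPC array and without OPCL61 replicate 1, while without OPCL61 replicate 2 the list had 3 falls. Of 12 IGF axis genes 1 rose, Igfbp3, and 1 passed in opposite directions.

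**Figure D4:**
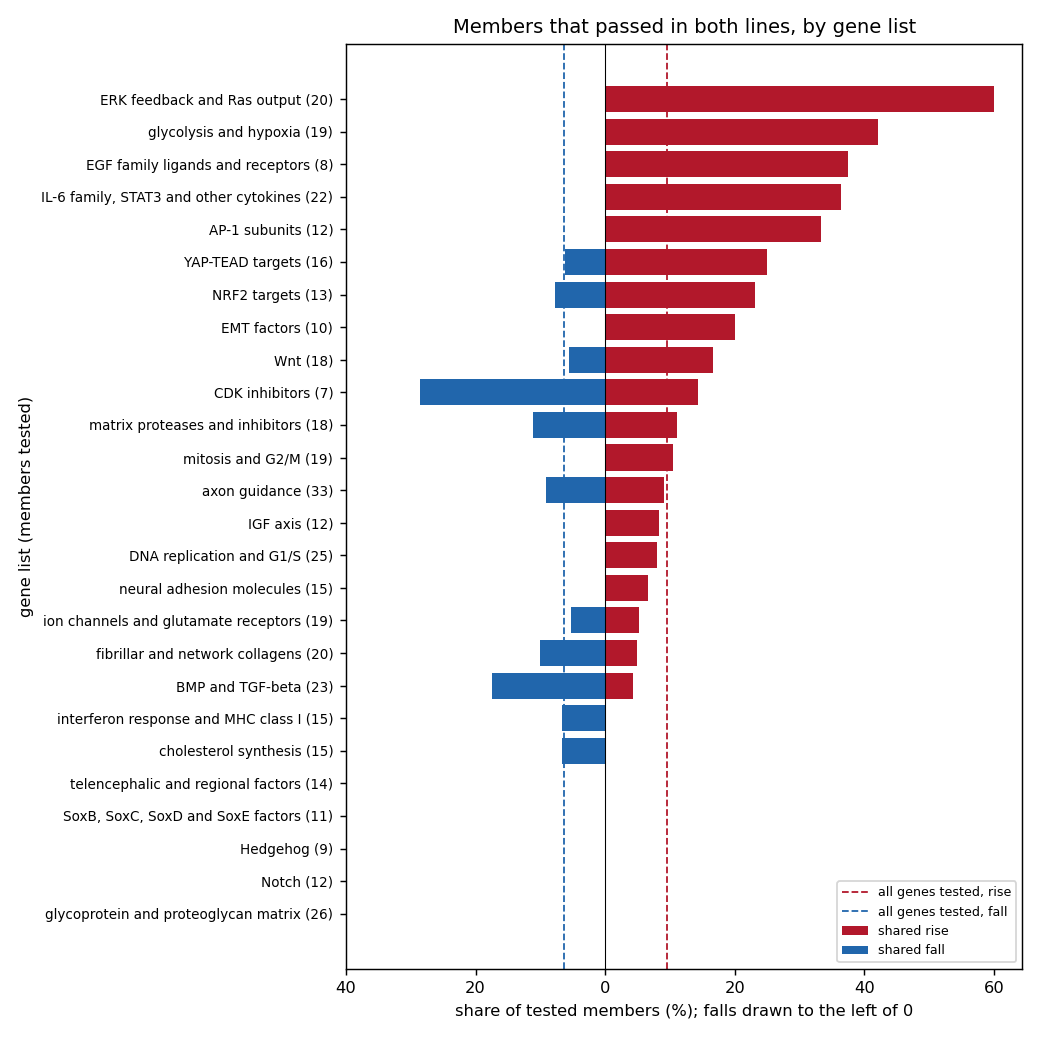
For each pathway list with at least 7 tested members, the bars give the share of tested members (%) that rose in both lines (red, right of 0) or fell in both (blue, left of 0). Dashed lines mark the shares over all tested genes, 9.49% and 6.37%, and the ERK, glycolysis and hypoxia, EGF family and cytokine lists reach furthest right.

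Over all tested genes 9.49% rose and 6.37% fell in both lines and 5.8% passed in opposite directions. The lists of matrix genes are read against those shares. Of 20 collagens 2 fell in both lines, Col11a1 and Col16a1 (by 1.32 ± 0.13 on average), and 1 rose, Col18a1, the source of endostatin. Col18a1 had 10.57 and 10.54 in NSCL61 against 7.75 and 6.21 in NSC, and 9.13 and 7.28 in OPCL61 against 4.89 and 5.58 in OPC. Another 6 passed in opposite directions, lower in NSCL61 and higher in OPCL61, among them the basement membrane collagens Col4a1 (-2.65 and 4.40) and Col4a2 (-3.02 and 4.82). Of 26 glycoprotein and proteoglycan genes 3 passed in opposite directions and the other 23 in one comparison or neither, with 1 (Tnc) moving the same way at an unadjusted p under 0.05 in both by limma. The proteoglycan Bgn, the member with the smallest p, had changes of -8.02 in NSCL61 and 0.38 in OPCL61. Of 18 matrix proteases and inhibitors 2 rose and 2 fell. Plaur, the urokinase receptor, had 10.58 and 10.48 in NSCL61 against 8.77 and 8.02 in NSC, and 9.52 and 10.27 in OPCL61 against 4.35 and 4.48 in OPC. Adamts9 rose by 1.24 ± 0.22, a call lost without NSCL61 replicate 2, OPC replicate 1 or OPCL61 replicate 1. The inhibitor Timp3 fell by 2.79 ± 0.21 and the membrane protease Mmp16 by 2.34 ± 0.17. The shared call of Plaur did not hold without the 3 arrays of high 18S signal (adjusted p = 0.0828 by limma).

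Among all tested genes 6.37% fell in both lines and 5.8% passed in opposite directions. Of 16 OPC markers 4 fell in both lines and 1 passed in opposite directions, with a median mean change of -1.97. They were Pdgfra, the receptor phosphatase Ptprz1, the proteoglycan Cspg4 (NG2) and the transcription factor Olig1. Ptprz1 had 5.31 and 5.41 in NSCL61 against 7.85 and 7.60 in NSC, and 8.83 and 7.72 in OPCL61 against 12.20 and 12.47 in OPC. Cspg4 had 6.35 and 6.33 in NSCL61 against 8.04 and 8.01 in NSC, and 6.37 and 6.31 in OPCL61 against 8.06 and 8.45 in OPC. Olig1 had 3.43 and 3.45 in NSCL61 against 4.26 and 3.76 in NSC, and 9.17 and 8.89 in OPCL61 against 13.86 and 14.04 in OPC, so its fall in NSCL61 lay within background signals. Ptprz1 fell by 3.21 ± 0.22 and Cspg4 by 1.80 ± 0.11 on average. Olig2 had changes of -0.12 in NSCL61 and -5.91 in OPCL61. Of 9 genes of maturing oligodendrocytes 1 passed in opposite directions and 0 moved the same way at an unadjusted p under 0.05 in both by limma, and Bcas1, with the smallest p, had changes of 0.01 and -6.79.

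Of 13 neural stem cell markers 1 rose, Prom1, and the other 12 passed in one comparison or neither. The shares over all tested genes were 9.49% for rises, 6.37% for falls and 5.8% for opposite calls. Sox2 had changes of 6.15 ± 0.57 in NSCL61 and -0.33 ± 0.57 in OPCL61, and Hes5 of -0.13 and -3.46. Of 13 neuron markers 2 rose, Nefl and Nefm, and 1 passed in opposite directions. The whole neuron list of 18 averaged 5.84 to 5.91 in NSCL61 against 4.65 to 5.17 in NSC, and 6.24 to 6.40 in OPCL61 against 6.07 to 6.33 in OPC. Dcx, Snap25, Nefh, Gad2 and Slc17a6 were under the filter. Of 6 neural intermediate filament genes those 2 rose, while Nes and Vim did not pass in both. Of 13 astrocyte markers 1 fell, the glutamate transporter Slc1a3 by 1.76 ± 0.29, and its call was lost in 16 of 23 other settings. Of 2 tested microglia markers the lysosomal Cd68 rose by 2.88 ± 0.28, and 8 of that list's 10 genes were under the filter. Of 2 tested endothelial genes 1, Flt1, passed in opposite directions, and Kdr had changes of 0.70 and 0.31.

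Both the Wnt and the BMP lists held rises and falls, beside 15.9% of all tested genes that moved the same way in both lines. Of 18 Wnt genes 3 rose and 1 fell. The ligand Wnt7b had 10.37 and 10.23 in NSCL61 against 6.37 and 6.43 in NSC, and 9.64 and 9.45 in OPCL61 against 8.13 and 7.82 in OPC. Wnt7b rose by 2.74 ± 0.09 on average, and the inhibitors Dkk2 and Apcdd1 by 2.59 ± 0.49 and 2.20 ± 0.40. The co-receptor Lrp6 fell by 0.92 ± 0.12. Without OPC replicate 2 or OPCL61 replicate 2 the calls of Dkk2, Apcdd1 and Lrp6 were lost, which left 1 rise, and without NSC replicate 1 or 2 the falls were 2 and 3. Of 23 BMP and TGF-beta genes 1 rose and 4 fell. Bmp2 rose by 2.77 ± 0.36 while Bmp4 fell by 2.16 ± 0.13. Bmp4 had 6.70 and 6.88 in NSCL61 against 9.64 and 9.61 in NSC, and 5.75 and 5.19 in OPCL61 against 6.88 and 7.05 in OPC. The BMP receptors Bmpr1a and Bmpr2 fell by 1.10 ± 0.11 and 0.57 ± 0.10, and the target Id3 by 1.39 ± 0.27. In OPCL61, other Bmpr1a probe sets of clear signal gave -0.02, 0.09 and 0.01, and dim ones gave -0.30 and -0.34. Other Bmpr2 probe sets gave -0.04 and -0.06 in OPCL61. With the mean of probe sets the calls of Bmpr1a and Bmpr2 were lost (adjusted p = 0.247 and 0.357 by limma). The 4 BMP falls were 2 without NSCL61 replicate 1 or OPCL61 replicate 2, where Bmpr2 and Id3 lost their calls, and Bmp2 lost its call without OPC replicate 1 or OPCL61 replicate 1. The shared calls of Bmpr1a, Bmpr2, Bmp2, Lrp6 and Apcdd1 did not hold without the 3 arrays of high 18S signal.

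Of 10 EMT factors 2 rose, Twist2 by 2.86 ± 0.23 and N-cadherin (Cdh2) by 0.71 ± 0.13 on average, and 2 passed in opposite directions. The shares over all tested genes were 9.49% for rises, 6.37% for falls and 5.8% for opposite calls. Twist2 changed by 1.04 in NSCL61 and 4.67 in OPCL61. The EMT count was 0 without NSC replicate 2 or NSCL61 replicate 1, where limma lost both calls, and 1 without NSC replicate 1, NSCL61 replicate 2, OPC replicate 2 or OPCL61 replicate 1. Of 16 YAP-TEAD genes 4 rose and 1 fell. Tead4, a DNA-binding partner of YAP, had 8.48 and 8.02 in NSCL61 against 4.87 and 5.29 in NSC, and 7.03 and 7.77 in OPCL61 against 3.56 and 3.15 in OPC. Axl, Myof and Wwtr1 rose by 1.80 ± 0.11, 2.54 ± 0.13 and 1.41 ± 0.21 on average, and Amotl2 fell by 0.79 ± 0.10. The Axl changes were 0.48 in NSCL61 and 3.12 in OPCL61, and those of Myof were 0.57 and 4.51. Ccn1 and Ccn2, classical targets, passed in opposite directions. The YAP-TEAD count of 4 was 1 without NSC replicate 2 or either NSCL61 array, 1 without the 3 arrays of high 18S signal and 1 with each array centred within chromosomes.

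Of 33 axon guidance genes 3 rose and 3 fell, beside 9.49% and 6.37% of all tested genes. Sema3e, a secreted semaphorin, had 10.06 and 10.23 in NSCL61 against 7.12 and 7.10 in NSC, and 7.74 and 6.83 in OPCL61 against 3.98 and 3.91 in OPC. Unc5c, a netrin receptor, had 5.54 and 5.65 in NSCL61 against 8.47 and 7.75 in NSC, and 5.39 and 5.26 in OPCL61 against 7.49 and 7.68 in OPC. Sema3e rose by 3.04 ± 0.25 in NSCL61 and 3.33 ± 0.25 in OPCL61, while Unc5c fell by 2.51 ± 0.21 and 2.26 ± 0.21. Epha3 and Ephb3 fell by 2.49 ± 0.33 and 0.85 ± 0.12. Ntn4 and Epha2 were the other rises. Of 19 ion channel and glutamate receptor genes the potassium channel Kcnq5 rose by 1.61 ± 0.18 and the calcium channel Cacna1c fell by 1.69 ± 0.12. Of 15 neural adhesion genes 1 rose, the polysialic acid synthase St8sia4, by 7.81 ± 0.39 in NSCL61 and 1.32 ± 0.39 in OPCL61, a call lost without either OPC array.

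Notch, Hedgehog, Sox and telencephalic factor genes had no shared call by limma, and at an unadjusted p under 0.05 in both comparisons the counts were 0 of 12, 1 of 9, 2 of 11 and 1 of 14. Among all tested genes 15.9% had a shared call and 5.8% passed in opposite directions. Of 12 Notch genes 2 passed in opposite directions, Notch1 at 1.23 and -2.23 and Nrarp at 1.06 and -1.45. Of 9 Hedgehog genes, Gas1 had the smallest p, at -4.95 and -0.26. Of 11 Sox genes 3 passed in opposite directions, Sox3, Sox5 and Sox6, each higher in NSCL61 and lower in OPCL61. Of 14 telencephalic factors 1 did, Dlx1, and Pou3f3 had changes of 5.38 and -0.41. Of 15 interferon genes Stat2 fell by 0.54 ± 0.10, a call lost without either array of NSCL61 or OPCL61 or OPC replicate 1, and 4 passed in opposite directions.

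Cell cycle genes rose in both lines about as often as all tested genes, of which 9.49% did. Of 25 replication genes 2 rose, the phosphatase Cdc25a by 0.54 ± 0.08 and the replication factor Mcm10 by 0.80 ± 0.13, with a list median of 0.28. Of 19 mitosis genes 2 rose, the kinases Aurka by 0.77 ± 0.13 and Bub1 by 0.92 ± 0.19, with a list median of 0.21. The 2 mitosis calls were both lost without any single array of NSC or NSCL61, and Bub1 kept its call in 14 of 23 other settings. The replication count was 1 without NSCL61 replicate 2, OPC replicate 2 or OPCL61 replicate 2, and 4 without OPC replicate 1 or OPCL61 replicate 1. Of 7 CDK inhibitors Cdkn1a (p21) rose and Cdkn2c and Cdkn1b fell, beside 6.37% of all tested genes that fell. Cdkn1a had 9.72 and 9.26 in NSCL61 against 7.89 and 8.0 in NSC, and 9.93 and 9.24 in OPCL61 against 6.89 and 6.99 in OPC. Cdkn2c had 7.83 and 7.75 in NSCL61 against 8.80 and 8.60 in NSC, and 8.16 and 8.24 in OPCL61 against 9.59 and 9.55 in OPC. Cdkn1a rose by 2.09 ± 0.31 and Cdkn2c fell by 1.14 ± 0.08 on average, and the Cdkn1b call was lost in 14 of 23 other settings. Cdkn1a lost its call without any single array of NSC or NSCL61. Without the 3 arrays of high 18S signal the shared calls of Cdc25a, Mcm10, Aurka, Bub1 and Cdkn1a did not hold, nor did those of Twist2, Cdh2, St8sia4, Kcnq5, Adamts9, Col18a1, Gstm1, Hmgcs1 and Stat2 given above.

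Further groups were drawn up after the values of their genes had been seen, so that their counts describe them and support nothing. The shares over all tested genes were 9.49% for rises and 6.37% for falls. Of 18 tested genes of epithelial junctions and surfaces 11 rose and 1 passed in opposite directions. Msln (mesothelin) had 7.57 and 7.61 in NSCL61 against 3.99 and 4.31 in NSC, and 7.94 and 9.14 in OPCL61 against 4.07 and 4.0 in OPC. The Kruppel-like factor Klf5 rose by 3.13 ± 0.28, the desmosome protein Pkp1 by 2.85 ± 0.23, and the protease inhibitor Spint1 also rose. Of 10 keratins 3 rose: Krt76, Krt20 by 3.86 ± 0.10 and Krt19. Krt5 and Krt8 did not pass in both lines, and E-cadherin (Cdh1) rose by 3.61 in NSCL61 with 0.38 in OPCL61.

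Of 8 tested genes of tetrahydrobiopterin and serotonin synthesis 6 rose, and 3 did so without the 3 arrays of high 18S signal. Gch1, the enzyme that commits GTP to tetrahydrobiopterin, had 8.75 and 8.29 in NSCL61 against 5.59 and 5.78 in NSC, and 10.23 and 10.10 in OPCL61 against 5.20 and 5.18 in OPC. Its regulator Gchfr had 10.09 and 9.94 in NSCL61 against 6.0 and 8.02 in NSC, and 8.25 and 9.34 in OPCL61 against 4.44 and 4.02 in OPC. Tph1, a tryptophan hydroxylase that uses that cofactor to make serotonin, had 5.91 and 6.04 in NSCL61 against 3.66 and 3.64 in NSC, and 7.55 and 8.78 in OPCL61 against 3.57 and 3.49 in OPC. The mean changes were 3.91 ± 0.34, 3.78 ± 0.45 and 3.48 ± 0.23, and Tph2, Pcbd1 and Qdpr rose as well. Ddc, which completes serotonin synthesis, and Th were under the filter. Of 9 neuropeptide and hormone genes 4 rose, Nppb, Calcb by 4.09 ± 0.32, Crh and Spx. Of 3 tested subunits of the muscle acetylcholine receptor, Chrna1 and Chrnb1 rose. Chrnb1 had 8.99 and 8.86 in NSCL61 against 5.39 and 5.32 in NSC, and 7.01 and 8.11 in OPCL61 against 3.90 and 4.05 in OPC.

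Odc1, which starts polyamine synthesis, had 13.18 and 12.82 in NSCL61 against 10.73 and 10.35 in NSC, and 13.55 and 13.66 in OPCL61 against 10.94 and 10.38 in OPC. The spermine oxidase Smox rose while Srm fell. Of 29 ribosome biogenesis genes 9 rose, with Nolc1 highest at 1.23 ± 0.10 on average. Another 19 passed in one comparison or neither, such as Wdr75 at -0.03 in NSCL61 and 0.99 in OPCL61, and 1 passed in opposite directions. The mean change, which 1 line can carry, passed its test as an increase for 26, beside 26.9% of all tested genes. The count of 9 was 2 without the 3 arrays of high 18S signal and 4 without NSCL61 replicate 1, and 5 without NSCL61 replicate 2 or NSC replicate 2. Of 4 nuclear factor I genes Nfia and Nfix fell. Nfib passed in opposite directions, at 0.62 in NSCL61 and -1.18 in OPCL61, and Nfic passed in neither comparison. Nfia had 4.76 and 4.98 in NSCL61 against 7.69 and 6.84 in NSC, and 7.44 and 6.31 in OPCL61 against 10.12 and 10.56 in OPC. Nfix had 8.40 and 8.71 in NSCL61 against 11.39 and 11.72 in NSC, and 9.18 and 8.20 in OPCL61 against 11.53 and 11.46 in OPC. Of 13 tested beta protocadherins, cell surface proteins encoded side by side on chromosome 18, 6 fell in both lines, for example Pcdhb21 by 2.75 ± 0.12 and Pcdhb22 by 2.99 ± 0.17. The other 7 passed in one comparison or neither, such as Pcdhb10 at 0.07 in NSCL61 and -3.57 in OPCL61. The mean change, which 1 line can carry, was past its test as a decrease for all 13, beside 25% of all tested genes. Members of this family are alike in sequence, so a probe set may not tell them apart.

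The next comparison asks where the 2 lines differed. The OPC change minus the NSC change passed for 4828 genes (37.8%). It passed for 325 of the shared rises (26.8%), 200 of them larger in OPCL61 and 125 larger in NSCL61, and for 234 of the shared falls (28.7%), 138 larger in OPCL61 and 96 larger in NSCL61. A further 742 genes (5.8%) passed in both comparisons in opposite directions, 360 (2.82%) higher in NSCL61 and lower in OPCL61, and 382 (2.99%) the other way. Anxa1, a calcium-binding annexin, had 12.07 and 12.19 in NSCL61 against 13.57 and 13.58 in NSC, and 12.32 and 12.71 in OPCL61 against 3.89 and 3.68 in OPC. The matrix protein Tgfbi had 6.86 and 6.91 in NSCL61 against 10.70 and 10.59 in NSC, and 8.39 and 7.74 in OPCL61 against 3.06 and 2.86 in OPC. In both genes the lines lay between the 2 parents. Cavin2, Postn and Rnase4 were also lower in NSCL61 and higher in OPCL61.

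In the other direction, the cell adhesion molecule Nrcam had 11.21 and 10.92 in NSCL61 against 4.0 and 3.39 in NSC, and 6.85 and 5.52 in OPCL61 against 9.23 and 9.04 in OPC. The protocadherin Pcdh8 had 10.75 and 10.51 in NSCL61 against 3.36 and 3.46 in NSC, and 6.72 and 6.99 in OPCL61 against 7.73 and 8.54 in OPC. Lrrn1, Gpm6a and Ugt8a were high in OPC and near background in NSC, and the lines lay nearer to each other than the parents did. Gpm6a had 3.12 and 3.20 in NSCL61 against 2.81 and 2.66 in NSC, and 3.69 and 3.77 in OPCL61 against 11.50 and 11.66 in OPC, so its rise in NSCL61 lay within background signals. Ugt8a, an enzyme of myelin lipid synthesis, changed by 4.15 ± 0.46 in NSCL61 and -3.90 ± 0.46 in OPCL61, a mean of 0.13 ± 0.33 (adjusted p = 0.778 by limma).

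As context, ASTL61 differed from AST in 3 genes (0.0235%) by limma, and 939 (7.34%) had an unadjusted p under 0.05. None of the 2027 shared genes was among the 3. Of the 1213 shared rises, 602 (49.6%) had the same sign in ASTL61, and at an unadjusted p under 0.05 the AST change went the same way for 77 and the other way for 47. Of the 814 shared falls, 318 (39.1%) had the same sign, with 9 the same way and 72 the other way. The mean change minus the AST change passed in the direction of the shared change for 1045 shared rises (86.2%) and 717 shared falls (88.1%). In that test, 1959 of all genes were higher (15.3%) and 2052 lower (16%). Shared genes were chosen on the changes that make up this mean, so the choice itself raises their shares. These shares therefore do not test whether the shared change is unlike the AST change.

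Qrfpr, Nefl and Klhl4 were near background in AST and ASTL61. Qrfpr had 2.95 and 3.0 in ASTL61 against 3.04 and 2.84 in AST. Nefl had 3.48 and 3.57 in ASTL61 against 3.71 and 3.24 in AST. Klhl4 had 2.64 and 2.63 in ASTL61 against 2.66 and 2.46 in AST. By contrast Perp, with 9.18 and 9.05 in ASTL61 against 8.90 and 9.53 in AST, and Dusp4, with 7.69 and 9.26 in ASTL61 against 8.32 and 8.26 in AST, were high there already. Acta2, with 13.51 and 12.97 in ASTL61 against 13.61 and 13.33 in AST, and Cdh11, with 10.09 and 10.10 in ASTL61 against 9.87 and 8.92 in AST, remained at signals far above those of NSCL61 and OPCL61. The mean change less the AST change was 6.52 ± 0.16 for Qrfpr, 5.76 ± 0.24 for Nppb, -5.61 ± 0.45 for Edil3 and -5.55 ± 0.47 for Ptn, the last 2 with AST changes of 1.12 ± 0.37 and 1.31 ± 0.38. Of the shared rises, 97 had group means under 5.183 in NSC, OPC, AST and ASTL61 alike. Such genes passed the signal filter only through NSCL61 or OPCL61, so this count follows in part from the filter. It is no test against AST, and the share over all tested genes was not computed.

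Shared changes were spread unevenly over the chromosomes. The 20 chromosomes with over 1 tested gene held 12734 genes, and the share that rose in both lines ran from 2.14% on chromosome 15 to 13.9% on chromosome 3. The share that fell ran from 3.12% on chromosome 19 to 12.4% on chromosome 14. On chromosome 14, 15 of 420 genes rose and 52 fell, and on chromosome 15, 11 of 515 rose and 62 fell. The median change of all tested genes of chromosome 15 was -0.13 in NSCL61 and -0.24 in OPCL61, against 0.00 in ASTL61. On chromosome 14 it was -0.40 in NSCL61 and 0.12 in OPCL61, and on chromosome 4 it was 0.11 and -0.28. With each array centred within chromosomes, 8.10% of chromosome 14 genes rose and 10.5% fell, and 5.44% of chromosome 15 genes rose and 8.54% fell. That centring left 1104 rises and 968 falls. Nefl, Nefm and Stc1 rose on chromosome 14, and Krt76 and Wnt7b on chromosome 15.

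**Figure D5:**
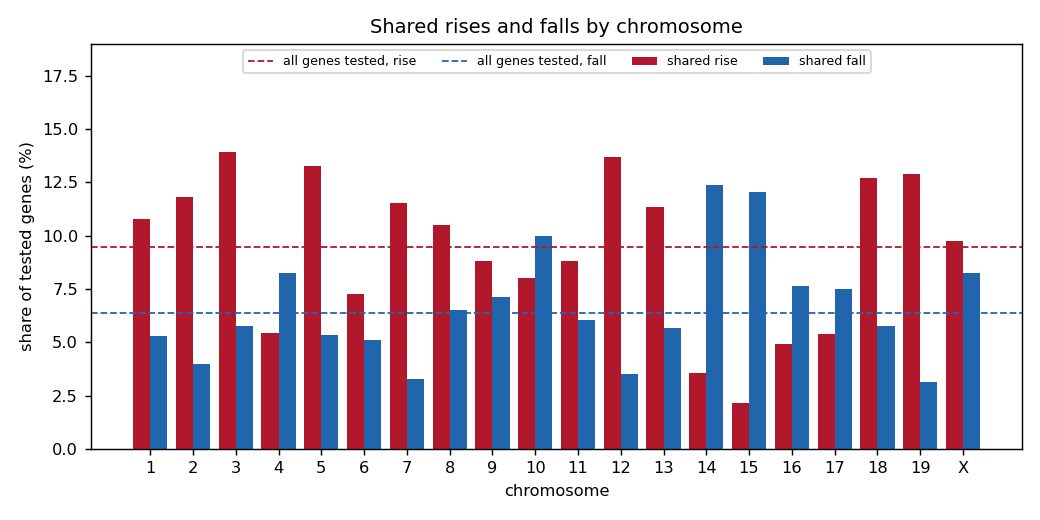
Share of tested genes (%) on each chromosome that rose (red) or fell (blue) in both lines, with dashed lines at the shares over all genes. Chromosomes 14 and 15 have the shortest red and the tallest blue bars.

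Second probe sets of the same genes were read on the same arrays as those the calls used, so they are not independent repeats. The filter takes a probe set through its highest group mean. A second probe set of a shared rise can therefore enter through the line in which it is high, and one of a fall through the parent. No share over all second probe sets is given to set beside the shares that follow, which are a description. Of 654 shared rises with a second probe set above the filter, 527 (80.6%) had the same sign in both comparisons and 363 (55.5%) passed both. Of 466 shared falls, 391 (83.9%) had the same sign and 241 (51.7%) passed both. They passed both in the opposite direction for 11 rises and 6 falls. At the limit of the rule, Bcl6b (1.19 in NSCL61 and 3.42 in OPCL61) and Btbd19 (0.56 and 0.34) were the last rises inside, and Dedd2 (1.66 and 0.46) and Pcna (0.35 and 0.31) the first outside. Limch1 (-3.71 and -1.22) and Pde4dip (-0.64 and -0.52) were the last falls inside, and Paxx (-0.50 and -0.48) and Brd9 (-0.27 and -0.40) the first outside.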

How the data were processed

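Of the series, 6 groups of mouse p53-/- cells were measured on 2 arrays each. The authors deposited log2 signals for 45101 probe sets, of which 64 are array controls, between 2.139 and 14.33. How signals were corrected, summarised and normalised is not given in the material used, and the values were used as deposited. Of 34958 probe sets with a single gene symbol, each of 18194 genes kept the one with the highest mean over 12 arrays. Genes were tested where any group's mean exceeded 5.183 (the median over every deposited value), which left 12788 and set aside 5406.

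One limma model (limma 3.58.1 in R 4.3.3) of 6 group means gave every difference, on 6 residual degrees of freedom (9.30 after moderation), with 2-sided p-values and Benjamini-Hochberg adjustment over the 12788 genes at 0.05. It was tested on simulated data. The ± values are SEs. The number of arrays limits the precision.

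Named were the 12 highest and 12 lowest shared mean changes and the 6 next each way by the smaller of both changes, where line and parent arrays did not overlap and leaving out provisional symbols. Also named were Nefl, Qrfpr, Prom1 and Col11a1, up to 4 shared members of each of 36 gene lists (the one with the smallest p where none was shared), and the 5 opposite genes each way that differed most. The 5 shared genes each way that differed most from AST and the genes at the limit of the rule complete the names. Other list members, and 10 further lists, were chosen after their values were seen. The members and all lists were chosen with earlier results of these data known. Alternatives covered normalisation, filter, probe set, prior, array weights, the arrays fitted, the replicate number as a block, size and call rules. Those without 3 arrays of high 18S signal and with centring within chromosomes were added after seeing the data.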

Additional observations from a re-analysis of the deposited data

Results flagged for a closer look

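The OPC change minus the NSC change passed the test for 4828 genes, 742 genes passed in both comparisons in opposite directions, and the mean change differed from the AST change for 4011 genes.

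Named genes that rose in both lines rose by different amounts where the test of the difference passed. The OPC change exceeded the NSC change by 2.815 for the natriuretic peptide Nppb and by 1.661 for Pla2g7. It was smaller in OPCL61, with differences of -4.614 for Igfbp3, -1.445 for Serpinb11 and -1.082 for Ube2ql1.

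Among the 12 named falls of lowest mean change, the fall was larger in NSCL61, a positive difference, for those that follow, while over all shared falls that differed 138 were larger in OPCL61 and 96 in NSCL61. For the contractile genes it was 5.039 for Myl9 and 4.079 for Acta2. For matrix and adhesion genes it was 3.772 for Ccdc80, 3.445 for Edil3, 2.234 for Cdh11 and 1.85 for Antxr1. It was 2.962 for the growth factor Ptn, 2.291 for Eya4, 1.99 for Epb41l3 and 1.811 for Foxd1. Moxd1 fell more in OPCL61, with -3.858.

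Among genes that moved in opposite directions, the difference was 10.63 for Cavin2, 10.18 for Anxa1, 9.16 for Postn, 9.061 for Rnase4 and 8.863 for Tgfbi. On the other side it was -10.32 for Nrcam, -9.027 for Lrrn1, -8.504 for Pcdh8, -8.278 for Gpm6a and -8.052 for Ugt8a. Cavin2 rested on OPCL61 arrays of 9.67 and 5.70, which lie far apart.

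Outside the genes named, 2704 probe sets with no single gene symbol passed the signal filter. Of these, 236 moved the same way past the test in both comparisons, 131 as rises (4.84%) and 105 as falls (3.88%).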

How the results depend on the processing

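Of the 2027 shared genes, 62.5% passed without NSCL61 replicate 1, 68.2% without NSCL61 replicate 2, 72.7% without NSC replicate 2, 77.3% with the mean of probe sets and 31.7% without the 3 arrays of high 18S signal, the lowest share over 23 settings. Of 3591 mean changes of 157 named genes 2 turned, both of Ugt8a, at -0.43 with the mean of its probe sets and -0.20 without OPCL61 replicate 2 (0.45 without OPCL61 replicate 1), and 24 fell back under the threshold. The correlation of replicate differences between groups ran from -0.196 to 0.105. These values cannot show whether arrays of the same replicate number were processed together. In NSC, NSCL61 and OPC it was replicate 2 that had the high 18S signal. With the replicate block, 1195 genes rose and 786 fell in both lines, 736 were opposite, and ASTL61 against AST had 2. The shared calls of Axl, Fosb, Npm1, Osgin1 and Slc1a3 did not hold there. No other shared gene of those 157 lost its call, and list members outside the 157 were not checked singly there.

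Leaving out the 3 arrays of high 18S signal leaves NSCL61, NSC and OPC with 1 array each, assumed to vary like the other groups. Counts were then 4031 for the mean change, 2306 for the difference, 1936 for NSCL61, 3829 for OPCL61, 0 for ASTL61 and 2155 for the mean less the AST change, with 404 shared rises, 267 shared falls and 222 opposite. Of those 671 shared genes 642 were among the 2027. A log2 change of at least 1 left 1938, 3060, 2087 and 2777 in that order, 1991 for the mean less the AST change, 411 rises, 276 falls and 229 opposite, by its own construction. Calling the mean change alone with the same sign gave 2871 rises and 2372 falls.

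Leaving out single arrays gave 5630 to 6698 genes for the mean change, 3647 to 4920 for the difference, 2999 to 5127 for NSCL61, 4600 to 6257 for OPCL61, 0 to 100 for ASTL61, 2536 to 4390 for the mean less the AST change, 749 to 1239 rises, 524 to 831 falls and 455 to 771 opposite. The low ends for NSCL61, rises, falls and opposite genes came without NSCL61 replicate 1, opposite genes also dropped to 476 without NSCL61 replicate 2, and 2536 came without AST replicate 2. The ASTL61 count by limma was 100 without ASTL61 replicate 1, 17 without AST replicate 1, 5 with array weights and 0 with the 4 arrays of that pair alone (939 unadjusted in all 12). The cause of these shifts was not tested. No depth is known for arrays, and the dimmest probe sets limit the size of changes from background.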
